A study of Caenorhabditis elegans with 12 samples.

Results

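The miR-51 family of Caenorhabditis elegans is a set of 6 microRNA (miRNA) genes, mir-51 to mir-56. Its members here were the rows of the miRNA count matrix named miR-51 to miR-56 followed by 5p or 3p, the labels of the 2 arms of the precursor hairpin, and this gave 11 of 263 distinct miRNA names. These were both arms of miR-51, miR-52, miR-54, miR-55 and miR-56 (such as cel-miR-51-5p and cel-miR-51-3p, where cel stands for the species and is left out from here on) and the 5p arm of miR-53 (cel-miR-53-5p). Small RNA was sequenced from whole wild-type N2 worms, cultured from the L4 stage for 5 d at 20 °C with their offspring removed, in 4 groups of 3 libraries each. Control worms had no addition to the standard NGM medium. High glucose-induced (HGI) worms were grown with 2% glucose alone (Glu), with 2% glucose and 0.1% DMSO, the solvent (DMSO + Glu), or with 2% glucose and 25 μM naringin, a citrus flavanone glycoside, in this solvent (Nar + Glu). A library holds the RNA of many worms with all their tissues and the embryos they carry, so fewer cells of a type and less RNA per cell cannot be told apart.

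A miRNA precursor is cut into a short duplex, and as a rule 1 arm is kept by an Argonaute protein and guides it to matching sites in mRNAs while the other arm is degraded. The kept arms of the miR-51 family share the bases that pair with target mRNAs, are related to miR-100 of other animals, and are found in most worm tissues. Loss of a few members has little visible effect in the worm, whereas loss of the whole family stops embryos with a defect in the attachment of the pharynx, and the family is known to interact genetically with the miRNAs that time larval development. In the WBcel235 annotation, mir-51 (chromosome IV, 11026013 to 11026112, minus strand) and mir-53 (chromosome IV, 11027593 to 11027691, minus strand) lie 1480 bases apart between the protein-coding genes alh-3 and hrg-5. The gene mir-52 is alone, also on chromosome IV (14034008 to 14034107, plus strand), where a non-coding RNA gene lies on the opposite strand. The genes mir-56 (13144691 to 13144787), mir-55 (13144827 to 13144924) and mir-54 (13144996 to 13145094) follow each other within 404 bases of chromosome X on the minus strand, inside an intron of F09A5.3, which is read from the plus strand. The mir-55 gene is also overlapped by mir-55b on the plus strand, and whether the counting used the strand is not stated in the methods or labels.

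The libraries held 2640879 to 5868806 counts, with the Control libraries deepest (from 4990586). The most abundant miRNA, the muscle miRNA miR-1-3p, took 28.9 to 34.6% of the counts in Nar + Glu and 38.1 to 48.2% in the other groups, so a share of all counts moves with it. Levels are therefore given as CPM, counts per fixed library total, scaled with the trimmed mean of M-values (TMM), which sets the scale from the bulk of the miRNAs. The Nar + Glu libraries had TMM factors of 1.17 to 1.31, above the range of 0.770 to 1.005 elsewhere. Scaling by total counts alone moved the median log2 fold change (log2FC) of all miRNAs from −0.06 to 0.37 between Nar + Glu and DMSO + Glu, and from 0.03 to 0.49 between Nar + Glu and Control. The markers of embryos (8 of 8 miR-35 family 3p arms), muscle (miR-1-3p), intestine (miR-243-3p) and neurons (2 of 2) were all above 0 in every group, and the summed CPM of the embryo markers was 98962 to 124162 in Nar + Glu, 122848 to 168324 in DMSO + Glu, 122746 to 157538 in Glu and 114862 to 138532 in Control.

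The family spanned a wide range of abundance. By mean count over the 12 libraries, cel-miR-52-5p was the 13th most abundant of the 263 miRNAs (59577 counts) and miR-51-5p the 16th (28095 counts). The 3p arms of the chromosome X genes came next, with miR-54-3p 30th, miR-55-3p 33rd and miR-56-3p 43rd, followed by miR-53-5p in place 47 and miR-54-5p in place 50. The other arms were far scarcer, from miR-51-3p (338 counts, 95th) through miR-52-3p (79.2 counts, 144th) and miR-55-5p (53.2 counts, 160th) to miR-56-5p (16.8 counts, 195th). The commoner arm was thus the 5p arm in the chromosome IV precursors with both arms listed and the 3p arm in those of chromosome X. The mature forms are 22 to 25 bases long, so their counts were compared without a correction for length.

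**Figure D1:**
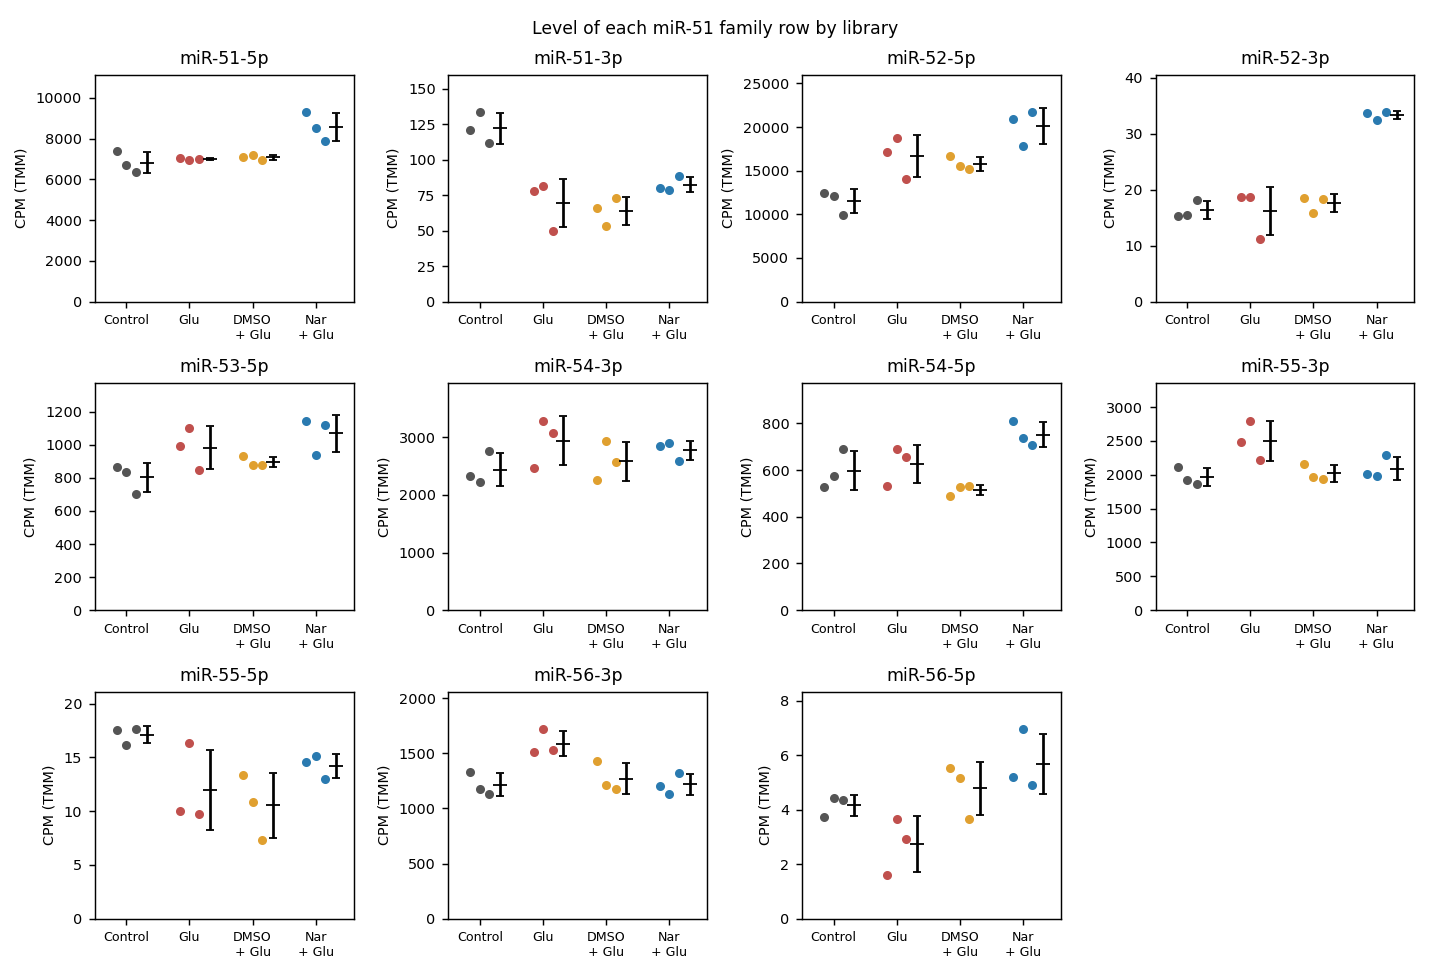
Level of each of the 11 family rows in 12 libraries, in TMM-scaled CPM on linear axes from 0, with points for the 3 libraries of each group and a bar for the mean ± SD (n = 3). The 3 Nar + Glu libraries lie highest, without overlap with any other group, for miR-51-5p, miR-52-3p and miR-54-5p, and the 3 Control libraries lie highest for miR-51-3p.

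The share of all counts that came from the family was largest in Nar + Glu. It was 2.64, 2.15 and 2.22% in the 3 Control libraries, 2.49, 3.51 and 2.88% in Glu, 2.79, 3.05 and 2.93% in DMSO + Glu, and 4.47, 4.38 and 4.95% in Nar + Glu. The Nar + Glu libraries lay above those of every other group, while Glu replicate 1 lay within the Control range. The mean share of Nar + Glu, 4.60% ± 0.31 (SD, n = 3), was 1.68 percentage points above that of DMSO + Glu (exact permutation test, two-sided, p = 0.1, which is the lowest value 3 libraries against 3 can give) and 2.27 points above that of Control (exact p = 0.1). Glu differed from Control by 0.62 points (exact p = 0.2) and DMSO + Glu from Glu by −0.04 points (exact p = 0.9), both with overlap. The mean share of Nar + Glu was 1.58 times that of DMSO + Glu, and with miR-1-3p left out of the total it was 1.41 times (6.83% ± 0.13 against 4.85% ± 0.31, SD, n = 3). On the TMM scale the summed level of the family was 36745 ± 2295 CPM (SD, n = 3) in Nar + Glu, 30269 ± 936 in DMSO + Glu, 32410 ± 2971 in Glu and 25518 ± 1798 in Control, and the ranges of Nar + Glu (34117 to 38353) and Glu (29493 to 35433) overlapped. The intestine marker was lower in Nar + Glu (75.9 to 84.2 CPM) than in DMSO + Glu (88.9 to 92.9 CPM) and the summed neuron markers were higher (15.1 to 20.02 against 9.17 to 14.5 CPM), both without overlap, whereas the embryo markers overlapped. The muscle marker was lower without overlap as well, at 220040 to 295403 CPM in Nar + Glu and 399218 to 429845 CPM in DMSO + Glu. In Glu the intestine marker (80.5 to 125 CPM) and the neuron markers (10.3 to 22.9 CPM) overlapped with Nar + Glu. The muscle marker in Glu (403924 to 561452 CPM) did not. The part of the embryo, muscle, intestine and neuron markers in the result was not tested.

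Shares, ratios and differences of this kind came to 76 permutation tests, 38 of them at the smallest p of 0.1, and after Benjamini-Hochberg adjustment no value was below 0.2. They are given as sizes with their overlap.

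**Figure D2:**
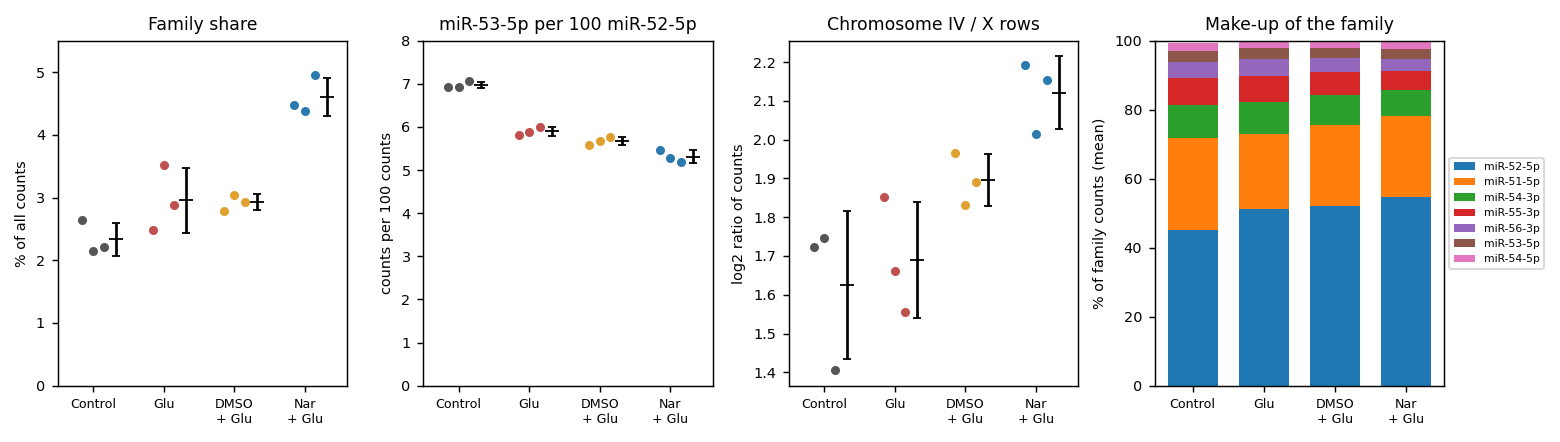
From left to right, the family's percent of all counts, the counts of miR-53-5p per 100 counts of miR-52-5p, the log2 ratio of summed counts of the chromosome IV to the chromosome X rows (axis not from 0), with points for libraries and bars for the mean ± SD (n = 3), and the mean percent of the family's counts taken by its 7 most abundant rows. The Nar + Glu libraries lie at 4.38 to 4.95% of all counts, above the other groups, and the 4 groups do not overlap in the counts of miR-53-5p per 100 of miR-52-5p.

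Between Nar + Glu and DMSO + Glu, the effect of naringin against its solvent, 2 of the 11 members rose and none fell. Both are scarcer arms, miR-52-3p (log2FC 0.86, SE 0.16, adjusted p = 0.00215) and miR-54-5p (log2FC 0.48, SE 0.11, adjusted p = 0.00822, edgeR quasi-likelihood fit, Benjamini-Hochberg adjusted over all miRNAs). Over all 219 miRNAs tested, 21.5% passed an adjusted p of 0.05, with 9.59% of all 219 higher and 11.9% lower in Nar + Glu, so with 2 of 11 the family's share of calls was near that of all miRNAs. At 1.5-fold and an unadjusted p of 0.05, the thresholds of the study, miR-52-3p passed alone, against 13.2% of all miRNAs. All 11 members passed the filter on low counts in all 4 comparisons. The median log2FC of the members was 0.21, beside −0.06 over all miRNAs. In 6 of 11 the Nar + Glu libraries lay above those of DMSO + Glu without overlap, as did 20.5% of all miRNAs. Overlap was judged on CPM with TMM factors of all 12 libraries. For miR-53-5p the gap was narrow, with a lowest Nar + Glu library of 940 CPM and a highest DMSO + Glu library of 932 CPM. With scaling by total counts alone, which moves all miRNAs upwards, 9 of 11 members passed as higher, as did 40.6% of all miRNAs. With Glu as the reference in place of DMSO + Glu 1 member passed, and 9.13% of all miRNAs did.

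Between Glu and Control, the effect of glucose, 1 of 11 members fell and none rose, where 8.52% of 223 miRNAs passed, 3.59% higher and 4.93% lower. This was miR-51-3p, with a log2FC of −0.85 (SE 0.19, edgeR adjusted p = 0.00561). The count rested on the libraries used. Without Control replicate 3 no member passed, and 2.65% of all miRNAs did, while miR-51-3p had a log2FC of −0.92 (adjusted p = 0.0703). Without Glu replicate 3 the count was 5, with miR-52-5p, miR-53-5p, miR-55-3p and miR-56-3p added as higher, and 19.2% of 229 miRNAs passed. The median of the members was 0.04, beside 0.00 over all miRNAs.

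Between DMSO + Glu and Glu, the effect of the solvent, edgeR passed 0 of 11 members and 0.0% of 215 miRNAs, and DESeq2 passed 0 members as well. At an unadjusted p of 0.05 there were 22 of 215 miRNAs (10.2%), of which 1 was a member, miR-56-5p (log2FC 0.83, SE 0.33, edgeR unadjusted p = 0.0291, adjusted p = 0.368).

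Between Nar + Glu and Control, which differ by glucose, DMSO and naringin together, 4 of 11 members passed, and 47.5% of 223 miRNAs did, 23.3% higher and 24.2% lower. The members that rose were miR-52-3p (log2FC 1.01, edgeR adjusted p = 0.000198), miR-52-5p (log2FC 0.78, adjusted p = 0.000556) and miR-53-5p (log2FC 0.39, adjusted p = 0.0227), and miR-51-3p fell (log2FC −0.59, adjusted p = 0.00243). The call of miR-53-5p was lost without Control replicate 2 or 3 and without Nar + Glu replicate 1 (adjusted p from 0.0648 to 0.166). Without Nar + Glu replicate 3, miR-51-5p and miR-54-5p also passed and the count was 6, while 109 of 232 miRNAs passed. With total counts alone 9 members passed as higher, as did 48.9% of all miRNAs, and miR-51-3p had a log2FC of −0.11 (adjusted p = 0.594). This comparison shares its libraries with the others, so the values are set side by side.

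**Figure D3:**
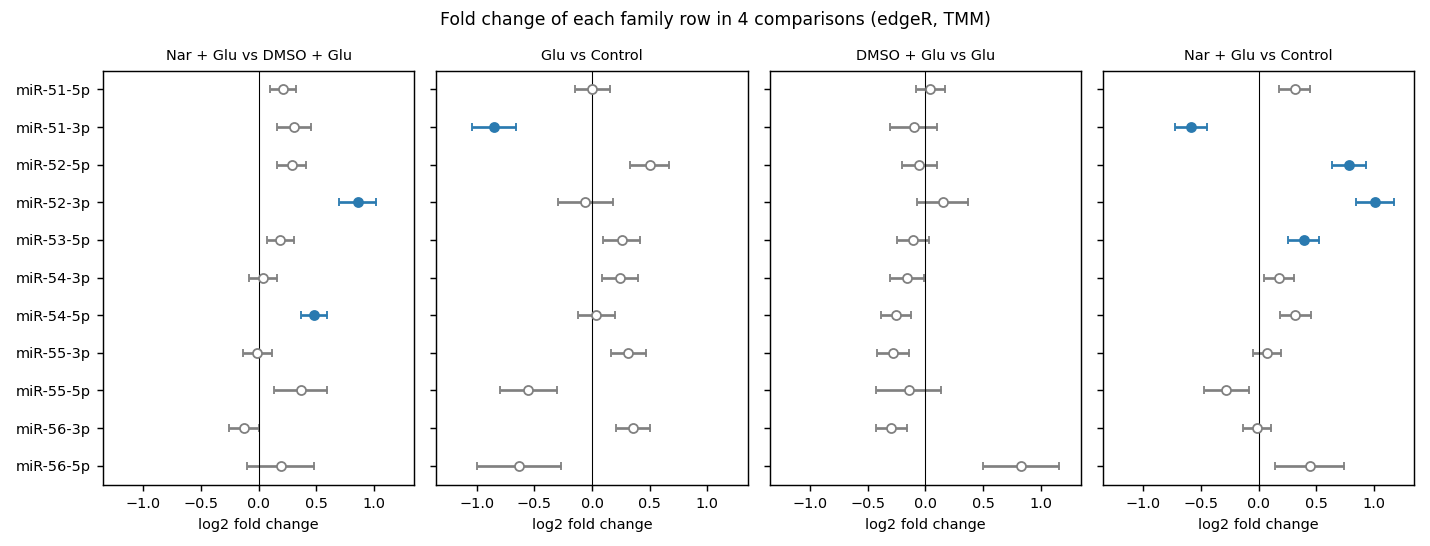
The log2FC of the 11 family rows in 4 comparisons from edgeR with TMM scaling, as points with bars of ± 1 standard error. Filled points passed an adjusted p of 0.05, 2 for Nar + Glu vs DMSO + Glu, 1 for Glu vs Control, none for DMSO + Glu vs Glu and 4 for Nar + Glu vs Control.

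Among the commoner arms of chromosome IV, miR-52-5p carried the largest share of the family's counts. Its level was 12502, 12110 and 9941 CPM in Control, 17136, 18782 and 14103 CPM in Glu, 16709, 15506 and 15182 CPM in DMSO + Glu, and 20929, 17801 and 21687 CPM in Nar + Glu. Every HGI library lay above the Control libraries, and Nar + Glu overlapped with Glu but not with DMSO + Glu. Against Control its log2FC was 0.50 in Glu (SE 0.17, edgeR adjusted p = 0.0604) and 0.78 in Nar + Glu (SE 0.15). The Glu difference passed with DESeq2 (adjusted p = 0.0361), with all 12 libraries in 1 edgeR fit (adjusted p = 0.0160), with the replicate block and without miR-1-3p. The joint fit and the block passed 16% and 21.1% of all miRNAs, beside 8.52% at first. The Glu difference did not pass with the size factors of DESeq2 in edgeR, total counts alone, no filter or a mean count of at least 100. With 1 library left out its edgeR adjusted p was 0.0064 to 0.287. Between Nar + Glu and DMSO + Glu the log2FC of miR-52-5p was 0.28 (SE 0.12, edgeR adjusted p = 0.114), and DESeq2 passed this difference with an adjusted p of 0.0463. The size of the Nar difference depended on the scaling, with a log2FC of 0.73 by total counts alone.

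The level of miR-51-5p was similar in the groups without Nar. It was 7371, 6725 and 6379 CPM in Control, 7068, 6938 and 6993 CPM in Glu, 7099, 7208 and 6939 CPM in DMSO + Glu, and 9285, 8499 and 7904 CPM in Nar + Glu. The 3 Nar + Glu libraries were the highest of the 12, and the other groups overlapped. The log2FC was 0.21 against DMSO + Glu (SE 0.11, edgeR adjusted p = 0.214) and 0.31 against Control (SE 0.14, adjusted p = 0.0688). The difference from Control passed with DESeq2 (adjusted p = 0.0434) and with all 12 libraries in 1 edgeR fit (adjusted p = 0.0329), and with total counts alone both differences passed (log2FC 0.65 and 0.77).

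The level of miR-53-5p, whose gene neighbours mir-51 but whose mature form is nearly identical in sequence to miR-52-5p, was 867, 838 and 702 CPM in Control, 995, 1104 and 848 CPM in Glu, 932, 879 and 876 CPM in DMSO + Glu, and 1145, 940 and 1123 CPM in Nar + Glu. Control was lowest and overlapped with Glu alone. Its log2FC was 0.26 in Glu against Control (SE 0.16, edgeR adjusted p = 0.321) and 0.19 in Nar + Glu against DMSO + Glu (SE 0.12, adjusted p = 0.286).

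The commoner arms of the chromosome X genes, which sit side by side and can be made from a shared transcript, had no call in any of the 4 comparisons when fitted on 6 libraries with TMM scaling and no replicate block. The level of miR-54-3p was 2330, 2219 and 2759 CPM in Control, 2463, 3284 and 3075 CPM in Glu, 2259, 2934 and 2569 CPM in DMSO + Glu, and 2842, 2896 and 2586 CPM in Nar + Glu. All neighbouring groups in the order of its means overlapped. The level of miR-55-3p was 2112, 1917 and 1864 CPM in Control, 2487, 2796 and 2215 CPM in Glu, 2164, 1962 and 1939 CPM in DMSO + Glu, and 2008, 1977 and 2294 CPM in Nar + Glu. That of miR-56-3p was 1332, 1175 and 1134 CPM in Control, 1514, 1716 and 1532 CPM in Glu, 1428, 1212 and 1174 CPM in DMSO + Glu, and 1201, 1131 and 1323 CPM in Nar + Glu. Both had their highest mean in Glu, and for miR-56-3p the Glu libraries lay above all others. The log2FC in Glu against Control was 0.31 for miR-55-3p (SE 0.15, edgeR adjusted p = 0.2) and 0.35 for miR-56-3p (SE 0.15, adjusted p = 0.119), and the latter passed with all 12 libraries in 1 fit (adjusted p = 0.0452) and with the replicate block (adjusted p = 0.0328). With 1 library left out the edgeR adjusted p of miR-56-3p was 0.031 to 0.410. In Nar + Glu against DMSO + Glu the log2FC of miR-54-3p, miR-55-3p and miR-56-3p was 0.04, −0.01 and −0.13, below those of miR-52-5p, miR-51-5p and miR-53-5p, and with total counts alone it was 0.47, 0.43 and 0.32, of which those of miR-54-3p and miR-55-3p passed.

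The balance between the chromosome IV and the chromosome X rows does not depend on library scaling. The log2 ratio of their summed counts was 1.72, 1.75 and 1.41 in Control, 1.85, 1.66 and 1.56 in Glu, 1.96, 1.83 and 1.89 in DMSO + Glu, and 2.19, 2.02 and 2.15 in Nar + Glu. The 3 Nar + Glu libraries had the highest ratios of the 12. The mean of Nar + Glu was 0.23 above that of DMSO + Glu and 0.50 above that of Control (two-sided exact permutation test, p = 0.1 for both, adjusted p = 0.2). Glu exceeded Control by 0.06 (exact p = 0.7) and DMSO + Glu exceeded Glu by 0.21 (exact p = 0.2), both with overlap. Ratios of 2 single miRNAs with mean counts of at least 1000 lacked overlap between Nar + Glu and DMSO + Glu in 40.1% of pairs. Between Nar + Glu and Control 61.8% of such pairs did.

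Within the family, miR-52-5p took 54.7% ± 2.63 (SD, n = 3) of the counts in Nar + Glu, 52.2% ± 1.26 in DMSO + Glu, 51.3% ± 3.01 in Glu and 45.0% ± 2.62 in Control. The share of miR-51-5p was 26.7% ± 0.529 (SD, n = 3) in Control, and 21.7% ± 2.07, 23.4% ± 0.557 and 23.4% ± 2.13 in Glu, DMSO + Glu and Nar + Glu. For both, Control did not overlap with Glu, DMSO + Glu or Nar + Glu. Among pairs of miRNAs with mean counts of at least 1000, 28.1% of ratios lacked overlap between Glu and Control, and 61.8% between Nar + Glu and Control. The share of miR-55-3p was 5.70% ± 0.428 (SD, n = 3) in Nar + Glu, 6.68% ± 0.239 in DMSO + Glu, 7.70% ± 0.191 in Glu and 7.70% ± 0.228 in Control, and that of miR-56-3p was 3.32% ± 0.186, 4.19% ± 0.335, 4.91% ± 0.261 and 4.76% ± 0.17 in the same order. Both were lower in DMSO + Glu than in Glu and lower again in Nar + Glu, without overlap at either step (two-sided exact permutation test, p = 0.1 for each, adjusted p = 0.2). Ratios of 2 miRNAs with mean counts of at least 1000 lacked overlap at these steps in 13.6% and 40.1% of pairs. A share within the family also falls when other members rise. The log2FC of miR-55-3p and miR-56-3p in Nar + Glu against DMSO + Glu was −0.01 and −0.13. The share of miR-54-3p was 9.62% ± 1.78 (SD, n = 3) in Control and 7.58% ± 0.835 in Nar + Glu, and it overlapped between Nar + Glu and DMSO + Glu (8.56% ± 1.23).

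The scarcer arms held the calls of the naringin and glucose comparisons. The deposited counts of miR-52-3p were 74, 74 and 100 in Control, 58, 56 and 38 in Glu, 64, 55 and 60 in DMSO + Glu, and 123, 131 and 117 in Nar + Glu, although the Nar + Glu libraries held the fewest counts on average. On the TMM scale this was 32.5 to 33.8 CPM in Nar + Glu, 15.8 to 18.6 CPM in DMSO + Glu, 11.2 to 18.7 CPM in Glu and 15.3 to 18.1 CPM in Control. The Nar + Glu libraries stood apart from all others, and the other groups overlapped. The call held with each of the 6 libraries left out in turn, with Glu as the reference (log2FC 1.10, edgeR adjusted p = 0.0176) and without miR-1-3p (log2FC 0.92).

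The 5p arm of miR-54 is the most abundant of the scarcer arms. The level of miR-54-5p was 527, 574 and 692 CPM in Control, 534, 692 and 654 CPM in Glu, 490, 526 and 530 CPM in DMSO + Glu, and 811, 739 and 708 CPM in Nar + Glu. The lowest Nar + Glu library lay just above the highest Glu library, and DMSO + Glu was the lowest group. Its rise against DMSO + Glu also held with each library left out, but against Glu the log2FC was 0.32 (edgeR adjusted p = 0.146) and against Control 0.32 (SE 0.13, adjusted p = 0.0623). In edgeR the difference from Control passed with the size factors of DESeq2 (adjusted p = 0.0481), a mean count of at least 100 (adjusted p = 0.0434) and total counts alone (adjusted p = 0.000194). It also passed without Control replicate 3 (adjusted p = 0.0373) or Nar + Glu replicate 3 (adjusted p = 0.0136). It did not pass with DESeq2, no filter, all 12 libraries in 1 fit or the replicate block.

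The level of miR-51-3p was 121, 133 and 112 CPM in Control, 77.7, 81.2 and 49.9 CPM in Glu, 65.9, 53.03 and 72.9 CPM in DMSO + Glu, and 80.1, 78.6 and 88.6 CPM in Nar + Glu. The Control libraries lay above all 9 HGI libraries, and Nar + Glu lay above DMSO + Glu without overlap. Its log2FC in Nar + Glu against DMSO + Glu was 0.30 (SE 0.15, edgeR adjusted p = 0.161). The remaining scarcer arms had few counts. The counts of miR-55-5p were 45 to 61 in Nar + Glu, 24 to 46 in DMSO + Glu, 31 to 49 in Glu and 77 to 97 in Control, and its log2FC was −0.55 in Glu against Control (SE 0.24, edgeR adjusted p = 0.144). The counts of miR-56-5p were 17 to 28 in Nar + Glu, 12 to 19 in DMSO + Glu, 5 to 11 in Glu and 18 to 24 in Control. At this depth the SE of its log2FC was 0.29 to 0.36, and with TMM scaling no difference passed an adjusted p of 0.05. With total counts alone its difference between Nar + Glu and Control passed (log2FC 0.91, edgeR adjusted p = 0.0160).

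The log2 ratio of scarcer over commoner arm compares both products of a precursor within a library and needs no scaling. In Glu all 5 precursors had lower ratios than in Control, and none of the 5 overlapped. Over the 76 precursors with mean counts of 10 or more for each arm, 28.9% had a higher mean ratio in Glu than in Control, and 22.4% were lower without overlap. The ratio of miR-51 was −5.93, −5.65 and −5.84 in Control and −6.50, −6.41 and −7.13 in Glu, a difference of −0.88. The differences of miR-52, miR-54, miR-55 and miR-56 were −0.58, −0.20, −0.89 and −1.01 (two-sided exact permutation test, p = 0.1 for each of the 5, adjusted p = 0.2).

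From DMSO + Glu to Nar + Glu the mean arm ratio was higher in all 5 precursors, as it was in 68.4% of the 76. Without overlap this was so in 2 of 5, miR-52 and miR-54, where 18.4% of the 76 were higher without overlap. The ratio of miR-52 was −9.80, −9.93 and −9.68 in DMSO + Glu and −9.27, −9.09 and −9.32 in Nar + Glu, a difference of 0.57. The ratio of miR-54 was −2.20, −2.48 and −2.28 in DMSO + Glu and −1.81, −1.97 and −1.87 in Nar + Glu, a difference of 0.44 (two-sided exact permutation test, p = 0.1 for both, adjusted p = 0.2). For miR-51, miR-55 and miR-56 the differences were 0.11, 0.42 and 0.30 with overlap. Against Control, the Nar + Glu ratios of miR-51 and miR-55 were lower without overlap (−0.89 and −0.35), where 18.4% of the 76 were, and those of miR-52, miR-54 and miR-56 overlapped with Control. In DMSO + Glu against Glu, miR-56 was higher by 1.143 without overlap, as 9.21% of the 76 were, on counts of 5 to 19 of its 5p arm.

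**Figure D4:**
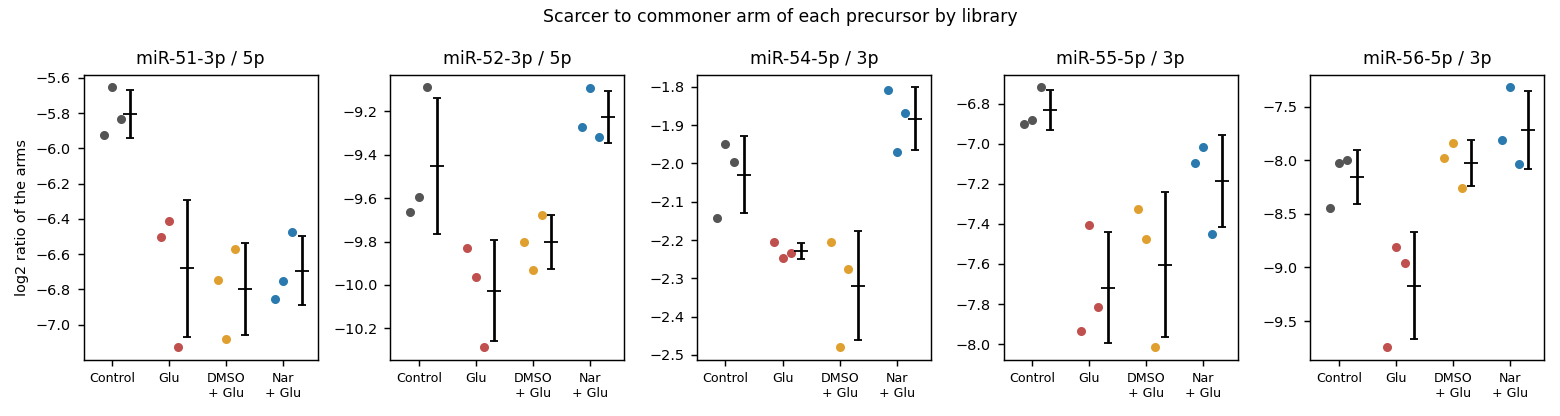
Log2 ratio of scarcer over commoner arm for the 5 precursors with both arms listed (pseudocount 0.5), with points for the 3 libraries of each group and bars for the mean ± SD (n = 3); the axes differ and do not start at 0. The Glu points lie below the Control points in all 5 plots, and the Nar + Glu points lie above the DMSO + Glu points in those of miR-52 and miR-54.

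The near-identical pair of miR-52-5p and miR-53-5p kept a tight ratio inside each group and a different ratio in each group. For every 100 counts of miR-52-5p there were 6.94, 6.92 and 7.06 counts of miR-53-5p in Control, 5.81, 5.88 and 6.01 in Glu, 5.58, 5.67 and 5.77 in DMSO + Glu, and 5.47, 5.28 and 5.18 in Nar + Glu. The 4 groups did not overlap, and the order was Control, Glu, DMSO + Glu and Nar + Glu. The differences were −1.08 in Glu against Control, −0.23 in DMSO + Glu against Glu, −0.36 in Nar + Glu against DMSO + Glu and −1.67 in Nar + Glu against Control (two-sided exact permutation test, p = 0.1 for each, adjusted p = 0.2). Ratios without overlap were common among the 2346 pairs of the 69 miRNAs whose mean count reached 1000, at 28.1%, 13.6%, 40.1% and 61.8% in the same order. The mean SD of the log2 ratio within groups was 0.026, where counting alone gives 0.025, and was the 2nd smallest of the 2346 pairs, after the pair miR-44-3p and miR-45-3p, which had identical counts. The number of mismatches allowed in counting is not stated in the methods or labels, so both counts are uncertain, and the part of reads of miR-52-5p assigned to miR-53-5p was not tested. This quantity was chosen after its values were seen.

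The neighbours miR-55-3p and miR-56-3p had the most constant ratio of all pairs whose counts were not identical. The SD of their log2 ratio over the 12 libraries was 0.076, the 2nd smallest of the 2346 pairs, where counting alone gives 0.026. The third gene of that cluster did not keep the same step, since the SD was 0.21 for miR-54-3p with miR-55-3p (204th) and 0.23 with miR-56-3p (322nd), above the 0.20 for the 2 arms of miR-54 with each other (144th). On chromosome IV, the SD was 0.15 for the neighbours miR-51-5p and miR-53-5p (52nd) and also 0.15 for the distant pair of miR-52-5p and miR-53-5p (49th). These values describe pairs that share libraries and depth.

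The miRNAs that time larval development, with which the family interacts genetically, were counted for comparison. Of the 6 (let-7-5p, miR-48-5p, miR-84-5p, miR-241-5p, lin-4-5p and miR-237-5p), 5 fell and none rose in Nar + Glu against DMSO + Glu, where 11.9% of all miRNAs fell, with a median log2FC of −0.60. With 1 library left out, 2 to 4 of the 6 fell, where 2.26 to 9.01% of all miRNAs fell. With total counts alone 1 of the 6 fell, as did 0.913% of all miRNAs, with a median of −0.16 beside 0.37 over all miRNAs. Against Control, 6 of 6 fell in Nar + Glu, where 24.2% of 223 miRNAs fell, with a median of −0.9999. With total counts alone 3 of the 6 fell against Control, where 3.14% of all miRNAs fell. Of the miR-35 family, the embryo miRNAs, 1 of 8 fell in Nar + Glu against DMSO + Glu (median −0.16), and of the miR-58 family, abundant miRNAs of many tissues, 1 of the 4 analysed here fell (median −0.39). With total counts alone both medians were above 0, at 0.29 and 0.059, but below the 0.37 over all miRNAs. In that setting 4 of the 8 and 1 of the 4 rose and none fell, where 40.6% of all miRNAs rose. With TMM the median over all miRNAs was −0.06.

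The miRNAs whose counts tracked the summed family most closely over the 12 libraries were miR-86-5p, miR-76-3p and miR-245-3p. The SD of the log2 ratio of the family's counts to theirs was 0.11, 0.11 and 0.13, beside a median of 0.34 over the 129 miRNAs compared.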

How the data were processed

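Per the labels and the study's methods, the authors trimmed reads with Cutadapt 1.14, dropped short fragments and counted reads on mature miRNAs with mirdeep2. The deposited values are these raw counts, without normalization and with replicates kept apart. No source used here states the miRBase release, how many mismatches were allowed or how reads with several matches were counted. A poly(A) selection before the small RNA kit is named in the labels, although the study describes it for mRNA. The table lists 268 entries under 263 names, and where a name recurred (5 names) its second entry was dropped.

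Each comparison was fitted on its 6 libraries with edgeR 4.0.16 in R 4.3.3 (filterByExpr with a minimum count of 10, TMM, quasi-likelihood test, Benjamini-Hochberg adjustment over all miRNAs tested), and a member was called at an adjusted p under 0.05. The procedure was tested on simulated counts. The printed CPM used TMM factors of the 12 libraries together. For ratios and shares, exact permutation tests were used, two-sided, with a pseudocount of 0.5 for arm ratios. Positions are those of the WBcel235 annotation. Plots were drawn with matplotlib 3.10.9. All members are named, with the 3 miRNAs of mean count of at least 100 that tracked the family most closely, lists as counts, and miR-1-3p for the scaling. The plan foresaw 9 members, but the rule found 11, so arm ratios of miR-54 and miR-55 were added. Members and lists were chosen with earlier results of these data known. No source used here says that replicates were separate cultures, so p-values may measure technical spread only.

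Alternatives were the size factors of DESeq2 in edgeR, total counts alone, DESeq2 1.42.0, no filter, Glu as the reference, a mean count of at least 100, the replicate block, a joint fit of all 12 libraries, other denominators and member sets, a pseudocount of 5, each library left out and, added after the data were seen, miR-1-3p left out.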

Additional observations from a re-analysis of the deposited data

How the results depend on the processing

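In Nar + Glu against DMSO + Glu, 2 members passed under 12 of 15 alternatives, 3 with DESeq2, 9 with total counts alone and 1 with Glu as the reference. Of all miRNAs, 7.69 to 20.7% passed under the 12, 19.6% with DESeq2, 41.6% with total counts alone and 9.13% with Glu as the reference. With a mean count of at least 100, which leaves out miR-52-3p, the 2 were miR-54-5p and miR-52-5p. In Glu against Control, 1 member passed at first, 2 with DESeq2 or without miR-1-3p, 3 with all 12 libraries in 1 fit, and 0 to 5 with 1 library left out. Of all miRNAs, 8.52% passed at first, 10.8% with DESeq2 and 9.42% without miR-1-3p. The joint fit passed 16% of all miRNAs, and fits with 1 library left out passed 1.75 to 19.2%. In Nar + Glu against Control, 9 passed with total counts alone and 3 to 6 with 1 library left out, where 52% and 35.7 to 47% of all miRNAs passed. The cause was not tested.

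Direction changed for values that had not passed under TMM. In Nar + Glu against DMSO + Glu the log2FC of miR-55-3p was 0.029 with the size factors of DESeq2 and also in DESeq2, 0.43 with total counts alone, 0.043 with no filter, 0.085 at a mean count of at least 100, 0.050 with all 12 libraries and 0.052 without miR-1-3p. That of miR-56-3p was 0.32 with total counts alone, and that of miR-54-3p was −0.027 against Glu. The log2FC of miR-51-5p in Glu against Control was −0.0093 with no filter and −0.030 at a mean count of at least 100. With total counts alone, miR-52-5p was at 0.0041 in DMSO + Glu against Glu, and in Nar + Glu against Control miR-55-5p was at 0.18 and miR-56-3p at 0.46 (0.0049 with all 12 libraries). The share of miR-51-5p among the commoner arms alone differed by 0.042 percentage points between Nar + Glu and DMSO + Glu.

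With 1 library left out, the log2FC in Nar + Glu against DMSO + Glu ranged from −0.037 to 0.19 for miR-54-3p and from −0.016 to 0.089 for miR-55-3p. In Glu against Control it ranged from −0.059 to 0.15 for miR-54-5p, −0.057 to 0.066 for miR-51-5p and −0.19 to 0.22 for miR-52-3p. In DMSO + Glu against Glu it ranged from −0.25 to 0.066 for miR-51-3p, −0.16 to 0.023 for miR-53-5p, −0.12 to 0.080 for miR-52-5p, −0.37 to 0.17 for miR-55-5p and −0.020 to 0.31 for miR-52-3p. In Nar + Glu against Control it ranged from −0.12 to 0.047 for miR-56-3p and −0.023 to 0.12 for miR-55-3p. Differences of shares, in percentage points, ranged from −0.273 to 0.239 for the family in DMSO + Glu against Glu, −0.836 to 1.15 for miR-51-5p and −0.096 to 0.020 for miR-53-5p in Nar + Glu against DMSO + Glu, −0.848 to 1.77 for miR-52-5p and −1.28 to 0.116 for miR-54-3p in DMSO + Glu against Glu, and −1.18 to 0.509 for miR-54-3p and −0.129 to 0.092 for miR-55-3p in Glu against Control. The log2 ratio of the chromosome IV to the chromosome X rows differed by −0.045 to 0.13 in Glu against Control, and the arm ratio by −0.036 to 0.22 for miR-51 in Nar + Glu against DMSO + Glu, and by −0.34 to 0.023 for miR-51 and −0.024 to 0.32 for miR-55 in DMSO + Glu against Glu.

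The labels give all groups replicate numbers 1 to 3, and same-numbered libraries deviated together with correlations from −0.40 to 0.30. The 3 correlations were 0.24, 0.07 and 0.30 in Glu against Control, and 0.19, 0.07 and 0.25 in DMSO + Glu against Glu. In the 2 naringin comparisons they had both signs. Whether equal numbers mark a pairing cannot be told from 3 values per comparison. With the replicate block 2 members passed in Nar + Glu against DMSO + Glu, 3 in Glu against Control, 0 in DMSO + Glu against Glu and 3 in Nar + Glu against Control. Of all miRNAs, 12.3, 21.1, 0 and 36.3% passed with the block in the same order, beside 21.5, 8.52, 0 and 47.5% without it. Depth limits miR-56-5p, with 5 to 28 counts per library, and miR-55-5p, with 24 to 97.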
